A study of Mus musculus with 4 samples.

Results

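Collagens and the enzymes and chaperones that make them were followed in NIH 3T3 cells, a mouse fibroblast line, carrying a knockdown construct against Selt, the gene of selenoprotein T now named Selenot. A probe belonged to the set if its gene symbol was a collagen chain (Col, a number, a and a number) or was Serpinh1, Lox, Loxl1 to Loxl4, P4ha1, P4ha2, Plod1 to Plod3, Pcolce, Bmp1, Leprel1 or P3h1. This gave 46 of the 12347 genes named on the array, 33 collagen chains and 13 processing genes, read by 69 of 22534 probes. No probe carried the name Leprel1, an older name of P3h2, and the 2 probes named P3h2 were not counted.

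The 4 two-colour arrays compared Cy5-labelled RNA of knockdown cells with the Cy3-labelled RNA of vector cells, which held pU6-m3 without an insert. The siSelT-1 insert matches nucleotides 205 to 224 of the Selt mRNA, and the siSelT-5 insert nucleotides 971 to 989. Each construct had 2 arrays, and their knockdown RNA came from separate cultures taken at different times. Vector and knockdown cells alike were stably transfected under 150 µg/ml hygromycin B and grown with 10% serum and 100 nM selenite. Whether a line was a clone or a pool, and whether arrays shared vector RNA, is not given in the sources used here.

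The deposited value is a log ratio, read here as log2 of knockdown over vector. Its base and normalization are not given in the sources used here, and the direction comes from the titles and dye labels. Knockdown RNA was always in Cy5, so a gene-specific dye effect does not cancel against vector. The targeted gene was not found under its old or new name, and its ratio was not analysed here. With siSelT-1 the arrays gave a value for 7689 and 9232 probes, and with siSelT-5 they gave one for 20268 and 18361. Over the 7038 probes measured on every array the median ratio was 0.19 and 0.09 with siSelT-1 and 0.43 and 0.36 with siSelT-5, and a centred ratio has these medians subtracted.

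Collagens are triple-helical proteins of the extracellular matrix and a main product of fibroblasts. Fibrillar chains form the banded fibres of connective tissue, type IV chains the network of basement membranes, and type VI chains beaded microfibrils. In the endoplasmic reticulum, prolyl and lysyl hydroxylases modify the chains and the chaperone HSP47, the product of Serpinh1, binds the helix. Outside the cell, Bmp1 trims the propeptides with the help of Pcolce, and lysyl oxidases crosslink the fibres.

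The promoters of 4 genes are shown, picked by their mean ratios described below. Col6a1, Col6a2 and Serpinh1 stood above vector and Col3a1 below it, though a further Col3a1 probe stood above vector with siSelT-5. No promoter sequence was available for Col5a2, which also fell, so the lower side is a single gene. Each sequence is the 250 bases before the annotated start, from RefSeq on build GRCm38.p6, 5′ to 3′ on the gene's strand. They lie at chr10:76726045-76726294 (minus strand) for Col6a1, chr10:76623631-76623880 (minus strand) for Col6a2, chr7:99353240-99353489 (minus strand) for Serpinh1 and chr1:45311288-45311537 (plus strand) for Col3a1. Capitals mark the letters GGGCGG, known as the GC box, those of the CCAAT box, or TATAAA, the TATA box, on either strand.
Col6a1: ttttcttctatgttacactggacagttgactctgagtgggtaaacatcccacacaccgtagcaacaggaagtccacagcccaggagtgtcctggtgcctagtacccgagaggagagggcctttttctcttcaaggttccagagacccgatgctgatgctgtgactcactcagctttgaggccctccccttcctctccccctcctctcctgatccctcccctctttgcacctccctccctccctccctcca
Col6a2: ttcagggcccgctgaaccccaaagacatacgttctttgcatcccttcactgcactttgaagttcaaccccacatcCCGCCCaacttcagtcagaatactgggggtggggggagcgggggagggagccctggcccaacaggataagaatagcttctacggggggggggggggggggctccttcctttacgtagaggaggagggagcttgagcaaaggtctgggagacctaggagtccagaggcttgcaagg
Serpinh1: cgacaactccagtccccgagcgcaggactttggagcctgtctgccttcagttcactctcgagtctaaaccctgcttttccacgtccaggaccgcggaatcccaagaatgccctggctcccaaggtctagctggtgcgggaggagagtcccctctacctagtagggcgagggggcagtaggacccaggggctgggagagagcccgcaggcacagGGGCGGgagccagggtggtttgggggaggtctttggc
Col3a1: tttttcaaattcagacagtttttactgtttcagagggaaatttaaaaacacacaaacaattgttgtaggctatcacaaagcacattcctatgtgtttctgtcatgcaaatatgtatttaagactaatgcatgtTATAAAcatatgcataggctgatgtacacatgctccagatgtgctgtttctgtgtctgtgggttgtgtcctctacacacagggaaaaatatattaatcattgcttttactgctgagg
The windows of the higher genes were 56.0% GC for Col6a1, 59.2% for Col6a2 and 63.6% for Serpinh1, against 35.2% for Col3a1. Col6a2 and Serpinh1 each held the letters of 1 GC box, at -175 and -37 from the annotated start. Col3a1 held TATAAA 1 time, at -117, and Col6a1 held 0 of the 3 motifs. Of 39 windows found for 35 member genes, 27 held a GC box (69.2%), 16 a CCAAT box (41.0%) and 6 a TATA box (15.4%). Over all 32851 windows of that length the shares were 32.7%, 33.9% and 12.4%. Those windows were not limited to genes on the array or in the fit, and a gene could have several. The shares are therefore not a matched background. A match is a run of letters and was not tested as a binding site.

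Of the 46 genes, 22 had a probe measured on all 4 arrays and entered the fit across 4754 genes: 12 collagens and 10 processing genes. For both constructs together against vector, 9 of the 22 rose and 2 fell (limma, Benjamini-Hochberg adjusted p under 0.05). This tests the mean of the construct means, so a gene moved by a single construct can pass. The rising genes were Col6a1, Col6a2, Col4a2, Col4a5, Col5a1, Serpinh1, Plod3, P3h1 and Pcolce, and the falling ones Col3a1 and Col5a2. Among all genes 53.7% passed (45.7% higher, 8.04% lower), so the 11 of 22 members were near the background. Their median was 0.22, against 0.25 over all genes.

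**Figure D1:**
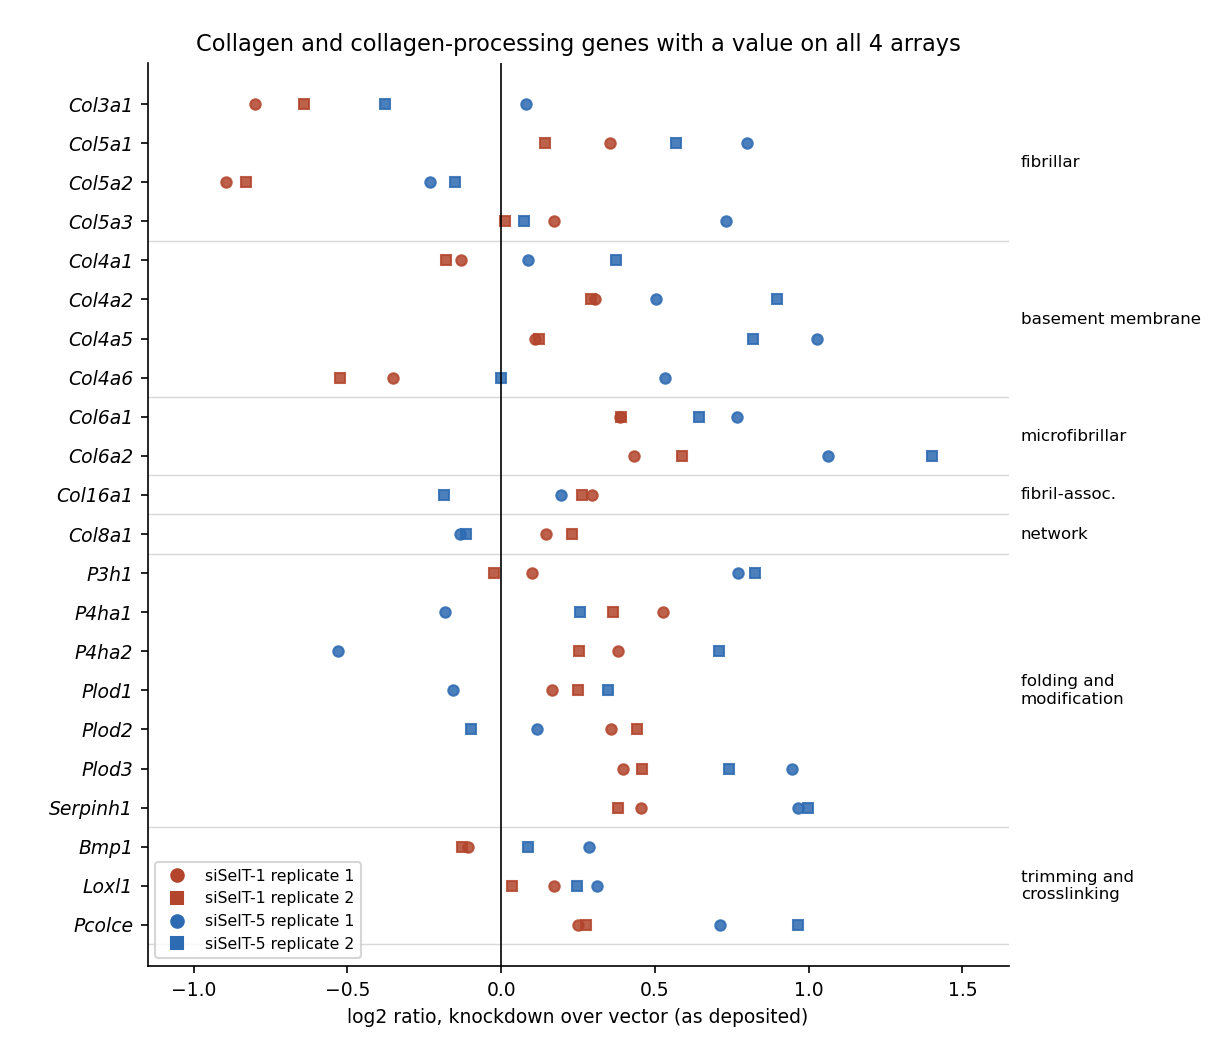
Log2 ratio of knockdown over vector (x axis, as deposited) for the 22 genes with a value on every array, 1 point per array, grouped by role. Marker shape gives the replicate and colour the construct. Both siSelT-1 points of Col3a1 lie at -0.80 and -0.64, and all 4 points of Col6a1, Col6a2, Serpinh1, Plod3 and Pcolce lie above 0.

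The microfibrillar chains had the highest median of the collagen types. Col6a2 (Entrez Gene 12834), the alpha 2 chain of type VI collagen, read 0.43 and 0.59 with siSelT-1 and 1.06 and 1.40 with siSelT-5. Every array was above vector, and the siSelT-5 pair lay above the siSelT-1 pair. The mean was 0.87 ± 0.44 (SD, n = 4; adjusted p = 0.00193), or 1.83-fold, at percentile 95.8 of the genes tested. Here and below, an SD with n = 4 includes the gap between constructs, while the adjusted p rests on the spread within them.

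Col6a1 (Entrez Gene 12833), the alpha 1 chain that assembles with it, has 3 probes, and their mean was 0.39 and 0.39 with siSelT-1 and 0.77 and 0.64 with siSelT-5. The 12 single readings ran from 0.0020 to 0.94, with none below vector. The mean was 0.55 ± 0.19 (SD, n = 4; adjusted p = 0.00329). After centring both still passed, Col6a2 at 0.60 (adjusted p = 0.0103) and Col6a1 at 0.28 (adjusted p = 0.0283). Col6a4, another type VI chain, gave 1 value, -1.10 on siSelT-5 replicate 1.

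The fibrillar chains moved in both directions. Col3a1 (Entrez Gene 12825), the type III chain of reticular fibres, read -0.80 and -0.64 with siSelT-1 and 0.080 and -0.38 with siSelT-5. It was below vector on 3 of 4 arrays. The mean was -0.44 ± 0.39 (SD, n = 4; adjusted p = 0.0170), and the siSelT-1 mean alone passed as well, at -0.72 ± 0.11 (SD, n = 2; adjusted p = 0.0380).

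Col5a2 (Entrez Gene 12832), a type V chain built into type I fibrils, was read by 2 complete probes whose mean was -0.90 and -0.83 with siSelT-1 and -0.23 and -0.15 with siSelT-5. Every array was below vector, and the siSelT-1 pair lay below the siSelT-5 pair. The mean was -0.53 ± 0.39 (SD, n = 4; adjusted p = 0.00355), or 0.694-fold, at percentile 3.43 of all genes. The siSelT-1 mean was -0.86 ± 0.047 (SD, n = 2; adjusted p = 0.0256).

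Further probes of these genes lacked a value on siSelT-1 replicate 1. The second Col3a1 probe read -0.30 with siSelT-1 and 0.50 and 0.67 with siSelT-5, above vector in the latter. A fit over 6024 genes asked for 1 array of each construct and so included it. Each array there averaged the probes it had, so the values of a gene could rest on different probes. For Col3a1, siSelT-1 replicate 1 held -0.80 from the complete probe alone, and replicate 2 held -0.47 from both probes. Col3a1 no longer passed there for both constructs together (-0.21, adjusted p = 0.138) or for siSelT-1 (-0.64, adjusted p = 0.0663). The part of the changed probes in this was not tested. The last Col5a2 probe read -0.64 with siSelT-1 and -0.93 and -1.09 with siSelT-5, all below vector. In that fit the mean of the construct means of Col5a2 passed as lower (-0.65, adjusted p = 0.00448). The siSelT-5 mean passed too (-0.46, adjusted p = 0.0276), and the siSelT-1 mean did not (-0.83, adjusted p = 0.0502). The fit passed 42.5% of all genes for both constructs, 1.11% for siSelT-1 and 43.6% for siSelT-5.

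Col5a1 (Entrez Gene 12831), the alpha 1 chain of type V, went the other way from Col5a2, with which it assembles. It read 0.35 and 0.14 with siSelT-1 and 0.80 and 0.57 with siSelT-5, above vector on every array, with a mean of 0.47 ± 0.28 (SD, n = 4; adjusted p = 0.00793). Col5a3, the alpha 3 chain, read 0.17 and 0.012 with siSelT-1 and 0.73 and 0.072 with siSelT-5. Its constructs overlapped, and it did not pass, at 0.25 ± 0.33 (SD, n = 4; adjusted p = 0.148). After centring Col5a1 did not pass either, at 0.20 (adjusted p = 0.0824), while Col3a1 and Col5a2 stood at -0.70 (adjusted p = 0.00720) and -0.79 (adjusted p = 0.00433).

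Type I collagen, the main fibre of fibroblast matrix, had no value on siSelT-1 replicate 1 and was outside the fit over 4754 genes. Col1a1 read 0.35 with siSelT-1 and 0.92 and 1.15 with siSelT-5. Col1a2, the chain that pairs with it, read 0.025 with siSelT-1 and 0.22 and 0.46 with siSelT-5. All these readings were above vector. In the fit over 6024 genes the mean of the construct means was 0.69 for Col1a1 and 0.18 for Col1a2. For both genes siSelT-1 rests on 1 array. In that fit Col1a1 stood at 0.35 with siSelT-1 and 1.03 with siSelT-5, and Col1a2 at 0.025 and 0.34. The median of the 7 fibrillar genes there was 0.25, against -0.095 for the 4 genes in the fit over 4754, so its sign depended on which chains and probes were counted. It also depended on single arrays. Without siSelT-5 replicate 2 the median of the 4 genes was 0.045, and without siSelT-5 replicate 1 it was -0.21.

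Among basement membrane chains 2 of 4 rose and 0 fell, beside the 45.7% of all genes that rose, and after centring 1 was higher and 1 lower. The centred shares of all genes were 20.5% higher and 21.9% lower. Col4a1 and Col4a2, the widespread type IV pair, lie head to head on chromosome 8 with gene models that overlap by 84 bases at their starts. Col4a2 (Entrez Gene 12827) read 0.30 and 0.29 with siSelT-1 and 0.50 and 0.90 with siSelT-5, above vector throughout, with a mean of 0.50 ± 0.28 (SD, n = 4; adjusted p = 0.00818). Col4a1 read -0.13 and -0.18 with siSelT-1 and 0.087 and 0.37 with siSelT-5, and it did not pass, at 0.037 ± 0.25 (SD, n = 4; adjusted p = 0.738). On each array the Col4a1 ratio was below that of Col4a2. After centring Col4a2 did not pass, at 0.23 (adjusted p = 0.116).

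Col4a5 (Entrez Gene 12830), a type IV chain on the X chromosome, had the widest gap between the construct means among the 22 genes, each taken as the mean of its probes. It read 0.11 and 0.12 with siSelT-1 and 1.03 and 0.82 with siSelT-5, or 1.08-fold and 1.90-fold as means. The siSelT-5 mean passed, at 0.92 ± 0.15 (SD, n = 2; adjusted p = 0.00262), and the siSelT-1 mean did not (adjusted p = 0.511). Together they gave 0.52 ± 0.47 (SD, n = 4; adjusted p = 0.00431), and centred 0.25 (adjusted p = 0.0418). The other Col4a5 probe gave a single value, -0.47 on siSelT-5 replicate 1.

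Col4a6, the neighbour of Col4a5, was read by 2 complete probes that disagreed. 1 of them read -0.75 and -0.85 with siSelT-1 and 0.76 and 0.59 with siSelT-5, so the constructs lay on opposite sides of vector. Fitted as a single probe (limma), it fell with siSelT-1 (-0.80, adjusted p = 0.0318) and rose with siSelT-5 (0.68, adjusted p = 0.00624). Its difference between constructs, -1.48, did not pass (adjusted p = 0.0522). The other read 0.046 and -0.20 with siSelT-1 and 0.30 and -0.59 with siSelT-5, with no such split. Their mean did not pass as deposited, at -0.086 ± 0.47 (SD, n = 4; adjusted p = 0.546), and was lower after centring, at -0.35 (adjusted p = 0.0406).

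Of the basement membrane zone collagens, Col15a1 read -0.17 on siSelT-1 replicate 1 and 0.67 and 0.0090 with siSelT-5. Col18a1, the source of endostatin, read 0.72 and -0.23 with siSelT-5 and had no siSelT-1 value. In both, the siSelT-5 arrays were far apart.

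In the fit over 4754 genes the types kept 1 order on all arrays. The microfibrillar median of 2 genes exceeded the fibrillar median of 4 genes by 0.72 and 0.80 with siSelT-1 and by 0.51 and 1.06 with siSelT-5. The basement membrane median of 4 genes lay between them on 4 of 4 arrays. It exceeded the fibrillar median by 0.30 and 0.29 with siSelT-1 and by 0.11 and 0.63 with siSelT-5. Centring cannot change this order, since it moves every gene of an array alike. The order did depend on the genes counted. In the fit over 6024 genes the basement membrane median of 5 genes was the lowest, at 0.085 for both constructs, -0.16 for siSelT-1 and 0.34 for siSelT-5. The fibrillar median of 7 genes there was 0.25, 0.091 and 0.40 in turn, and the microfibrillar median 0.71, 0.45 and 0.97.

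Set against the median of all genes on the same array, microfibrillar chains differed by 0.23 and 0.40 with siSelT-1 and by 0.49 and 0.67 with siSelT-5. Fibrillar chains differed by -0.50, -0.41, -0.022 and -0.39 in the same order, below it on every array. Basement membrane chains were below it with siSelT-1 (-0.20 and -0.12) and above it with siSelT-5 (0.090 and 0.25). These are medians of 2 to 4 genes and carry no test. The fibrillar siSelT-5 median turned from 0.13 to -0.27 on centring.

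**Figure D2:**
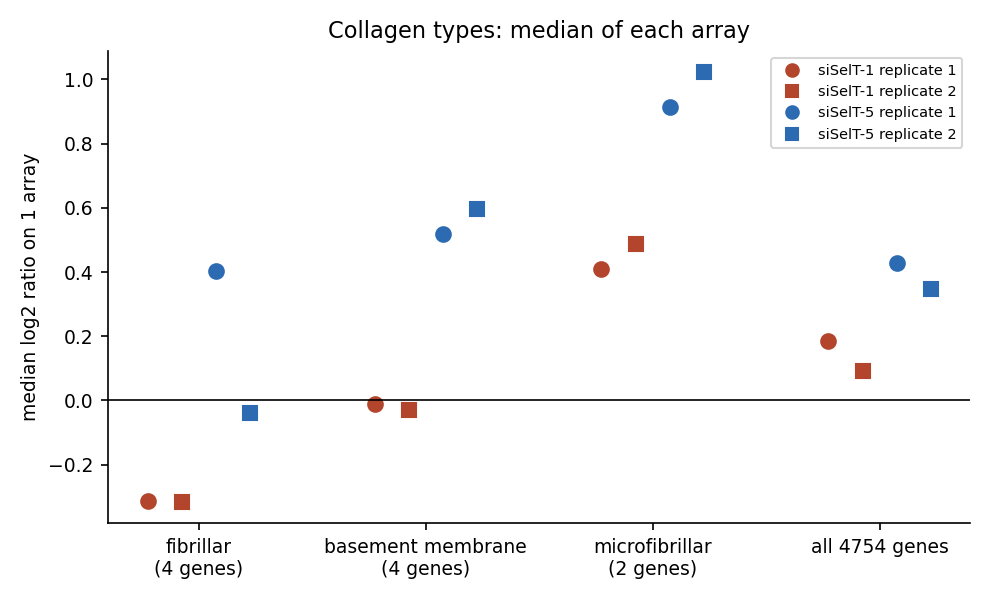
Median log2 ratio on each array (y axis) of the fibrillar, basement membrane and microfibrillar genes with a value on every array, beside the median of all 4754 genes. Red is siSelT-1, blue siSelT-5, and marker shape the replicate. The microfibrillar points run from 0.41 to 1.02 and the fibrillar points from -0.32 to 0.40, and on each array the microfibrillar point is the higher.

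Of the other collagens with complete values, neither passed as deposited. Col16a1, a fibril-associated collagen, read 0.29 and 0.26 with siSelT-1 and 0.20 and -0.19 with siSelT-5, with a mean of 0.14 ± 0.22 (SD, n = 4; adjusted p = 0.246). Col8a1, a short-chain network collagen, had 2 probes whose means had opposite signs. 1 read 0.51 and 0.46 with siSelT-1 and 0.48 and 0.38 with siSelT-5, and the other -0.22 and 0.0024 and then -0.75 and -0.62. The gene mean averages them, at 0.032 ± 0.19 (SD, n = 4; adjusted p = 0.747).

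Among the genes of folding and modification inside the cell, 3 of 7 rose and 0 fell, where 45.7% of all genes rose and 8.04% fell. After centring 2 were higher and 0 lower, beside 20.5% and 21.9% of all genes. Serpinh1 (Entrez Gene 12406), the collagen-specific chaperone gene, read 0.46 and 0.38 with siSelT-1 and 0.96 and 1.00 with siSelT-5. The constructs did not overlap, and the mean was 0.70 ± 0.33 (SD, n = 4; adjusted p = 0.00195), or 1.62-fold, and after centring 0.43 (adjusted p = 0.00935).

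Plod3 (Entrez Gene 26433), a lysyl hydroxylase that also glycosylates collagen, read 0.40 and 0.46 with siSelT-1 and 0.95 and 0.74 with siSelT-5, with a mean of 0.64 ± 0.26 (SD, n = 4; adjusted p = 0.00262). Another Plod3 probe read 0.025 and -0.68 with siSelT-5 and had no siSelT-1 value. The related lysyl hydroxylases did not pass. Plod2, which acts on telopeptides, read 0.36 and 0.44 with siSelT-1 and 0.12 and -0.099 with siSelT-5, with a mean of 0.20 ± 0.24 (SD, n = 4; adjusted p = 0.0836). Plod1 read 0.16 and 0.25 with siSelT-1 and -0.16 and 0.35 with siSelT-5, with a mean of 0.15 ± 0.22 (SD, n = 4; adjusted p = 0.276).

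P3h1 (Entrez Gene 56401), a prolyl 3-hydroxylase, has 2 probes whose mean was 0.099 and -0.025 with siSelT-1 and 0.77 and 0.83 with siSelT-5. The siSelT-5 mean passed, at 0.80 ± 0.041 (SD, n = 2; adjusted p = 0.00318), and the siSelT-1 mean did not (adjusted p = 0.839). Both constructs together gave 0.42 ± 0.44 (SD, n = 4; adjusted p = 0.00742), which did not pass after centring, at 0.15 (adjusted p = 0.136).

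The alpha subunits of prolyl 4-hydroxylase, the enzyme whose hydroxyproline stabilises the helix, did not pass. P4ha1 read 0.53 and 0.36 with siSelT-1 and -0.18 and 0.26 with siSelT-5, with a mean of 0.24 ± 0.30 (SD, n = 4; adjusted p = 0.0961). P4ha2 read 0.38 and 0.25 with siSelT-1 and -0.53 and 0.71 with siSelT-5, with a mean of 0.20 ± 0.52 (SD, n = 4; adjusted p = 0.428). Its siSelT-5 arrays lay on opposite sides of vector and had the widest spread of a replicate pair among the 22 genes.

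In the trimming and crosslinking group 1 of 3 rose, beside the 45.7% of all genes. After centring 1 was higher and 1 lower, beside 20.5% and 21.9% of all genes. Pcolce (Entrez Gene 18542), whose product enhances procollagen C-proteinase, read 0.25 and 0.27 with siSelT-1 and 0.71 and 0.96 with siSelT-5, with a mean of 0.55 ± 0.35 (SD, n = 4; adjusted p = 0.00404), and after centring 0.28 (adjusted p = 0.0483). Bmp1, the C-proteinase, read -0.11 and -0.13 with siSelT-1 and 0.29 and 0.088 with siSelT-5 over 3 probes, with a mean of 0.034 ± 0.19 (SD, n = 4; adjusted p = 0.740). Its probes differed in sign: the siSelT-5 means were 0.47, -0.17 and 0.26.

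Loxl1, a lysyl oxidase of elastic fibres, read 0.17 and 0.035 with siSelT-1 and 0.31 and 0.25 with siSelT-5, with a mean of 0.19 ± 0.12 (SD, n = 4; adjusted p = 0.0857). Lox itself gave 1 value, 0.71 on siSelT-1 replicate 2. Loxl2 gave -0.82 on siSelT-5 replicate 1 and Loxl4 -1.66 on siSelT-5 replicate 2. Of the crosslinking enzymes, only Loxl1 could be compared between constructs.

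By construct, 9 of the 22 genes rose with siSelT-5 and 0 fell, while 53.9% of all genes passed (47.6% higher, 6.29% lower). The 9 were those that rose for both constructs together. With siSelT-1, Col3a1 and Col5a2 fell and 0 rose, while 13.7% of all genes passed (10.3% higher, 3.37% lower). The members' median was 0.23 with siSelT-1 and 0.27 with siSelT-5, and over all genes 0.14 and 0.37. The joint comparison uses the same arrays, so these lists are not separate evidence.

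After centring, siSelT-5 gave 6 higher and 4 lower members in place of 9 and 0, and 39.2% of all genes passed (19.2% higher, 20% lower). Col3a1, Col5a2, Col8a1 and Plod2 then passed as lower (adjusted p = 0.0344, 0.0148, 0.0181 and 0.0421), and Col4a2, Col5a1 and Col6a1 no longer passed. The Col8a1 call averages probes whose siSelT-5 means were 0.43 and -0.68 as deposited. The Col3a1 probe outside this fit read 0.50 and 0.67 with siSelT-5, above the array medians of 0.43 and 0.36. Both constructs together gave 6 higher and 4 lower, with Col4a6 and Bmp1 beside Col3a1 and Col5a2 as lower, and 42.4% of all genes passed (20.5% higher, 21.9% lower). The Col4a6 and Bmp1 values also average probes that disagreed, as given above. siSelT-1 still gave 0 higher and 2 lower, and 8.9% of all genes passed (3.83% higher, 5.07% lower).

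The counts depended on single arrays. For both constructs 0 members passed without siSelT-1 replicate 1 (limma, 10 at an unadjusted p under 0.05), and 3 passed without siSelT-1 replicate 2, namely Col6a2, Serpinh1 and Plod3. Of all genes 0 and 18.4% passed in these fits. For siSelT-1, 0 passed without its replicate 1 and 0 without its replicate 2, with 1 and 2 at an unadjusted p under 0.05, and 0 of all genes passed either (limma). Leaving out siSelT-5 replicate 1 or siSelT-5 replicate 2 gave 13 of 22 members each for siSelT-1, beside 43.9% of all genes in each fit. In each of these fits the construct with 1 array is assumed to vary like the other. For fits that leave out an array, here and below, the share of all genes at an unadjusted p was not counted.

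siSelT-1 minus siSelT-5 compares the constructs directly, and a dye effect common to all arrays cancels in it. Of the 22 members 0 passed (limma, 9 at an unadjusted p under 0.05), and 0.0631% of all genes did. At an unadjusted p under 0.05 stood 1697 of all 4754 genes, so the 9 members were near the background. Col4a5 stood at -0.81 (-1.21 to -0.40), with the 95% interval in parentheses, and P3h1 at -0.76 (-1.14 to -0.38), both with an adjusted p of 0.0546. Col6a2 stood at -0.72 (-1.19 to -0.26), Col5a2 at -0.67 (-1.05 to -0.29) and Serpinh1 at -0.56 (-0.94 to -0.19), with adjusted p of 0.0655, 0.0585 and 0.0687. For P4ha2 the value was 0.23 (-0.77 to 1.23) and for Plod1 0.11 (-0.42 to 0.64), intervals that hold differences of either sign.

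All 10 fibrillar, basement membrane and microfibrillar genes had lower means with siSelT-1 than with siSelT-5, as deposited and after centring. Of all 4754 genes, 3436 had a lower mean with siSelT-1 as deposited and 2426 after centring. With centring and scaling Col6a1 turned to 0.067. P4ha1, P4ha2, Plod1, Plod2, Col16a1 and Col8a1 had higher means with siSelT-1, from 0.11 for Plod1 to 0.41 for P4ha1. The arrays of the constructs did not overlap for 19 of the 22 genes, with siSelT-1 lower for 15 and higher for 4. Over all genes 64.5% did not overlap, 52.6% with siSelT-1 lower and 11.9% with it higher. Without siSelT-5 replicate 1, 10 members passed for the difference, beside 37.8% of all genes, and without siSelT-5 replicate 2, 12 did, beside 37.6%. Without siSelT-1 replicate 1 or siSelT-1 replicate 2, 0 members and 0 of all genes passed (limma, 2 and 4 members at an unadjusted p under 0.05).

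**Figure D3:**
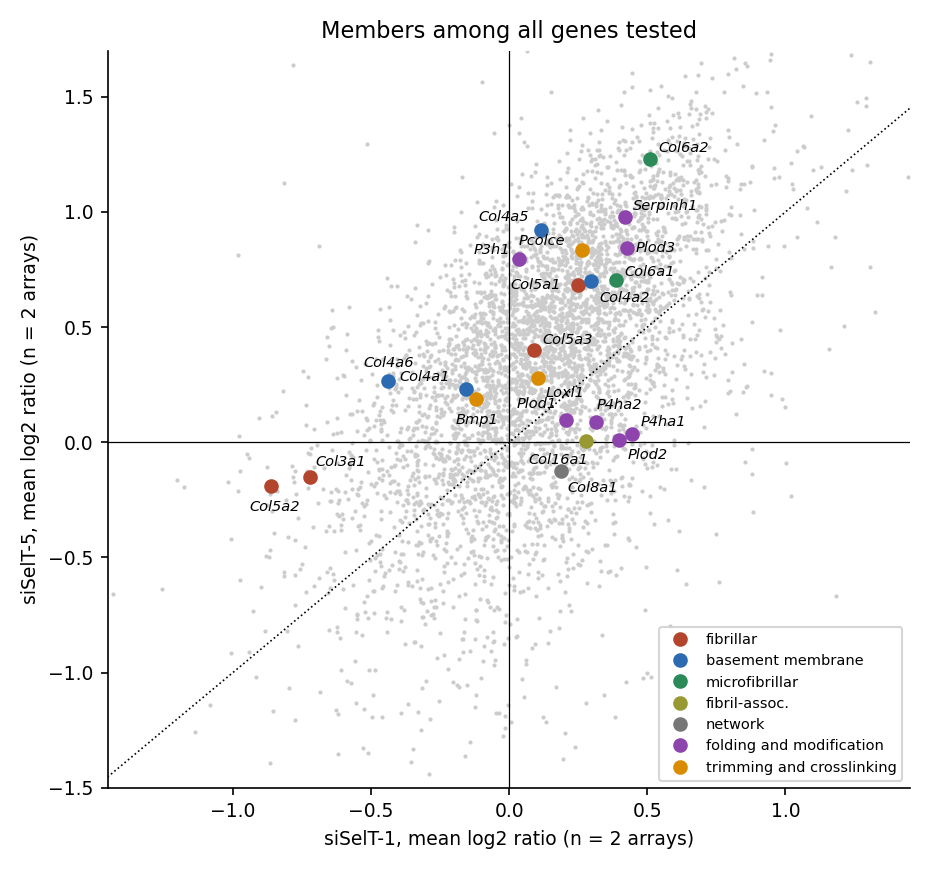
Mean log2 ratio with siSelT-1 (x axis) against siSelT-5 (y axis), n = 2 arrays each, for the 22 members (coloured by role) and the other genes tested (grey, a few outside the axes). The dotted line marks equal ratios. Col3a1 and Col5a2 lie at the left, at -0.72 and -0.86 with siSelT-1, and Col6a2 and Serpinh1 are the highest members with siSelT-5.

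Some members are neighbours in the genome, with 0 protein-coding genes between them. Col3a1 and Col5a2 on chromosome 1 both fell with siSelT-1, and Col6a1 and Col6a2 on chromosome 10 both rose with siSelT-5. Col4a1 and Col4a2 on chromosome 8 had siSelT-1 means of -0.16 and 0.30. Col4a5 and Col4a6 on the X chromosome had siSelT-1 means of 0.12 and -0.44.

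Agreement between probes of a gene was partial. Among 7 member genes with several complete probes, all probes had the same sign in 4 for siSelT-1 and in 4 for siSelT-5. Col5a2, Col6a1 and Loxl1 did so for both.

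The other 24 genes had values on fewer arrays: 5 with both constructs, 1 with siSelT-1 alone and 18 with siSelT-5 alone. Of the 30 member probes without a siSelT-1 value, 29 had a mean siSelT-5 ratio below 0, with a median of -1.03. The same held for the array as a whole. Of all named probes with 1 siSelT-5 value and nothing else 92.6% were below 0, as were 82.2% of those with both siSelT-5 values and no siSelT-1 value, against 26.0% of those measured on all 4 arrays. The member medians in the first 2 classes were -1.37 and -0.75, beside -1.20 and -0.61 for all named probes.

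**Figure D4:**
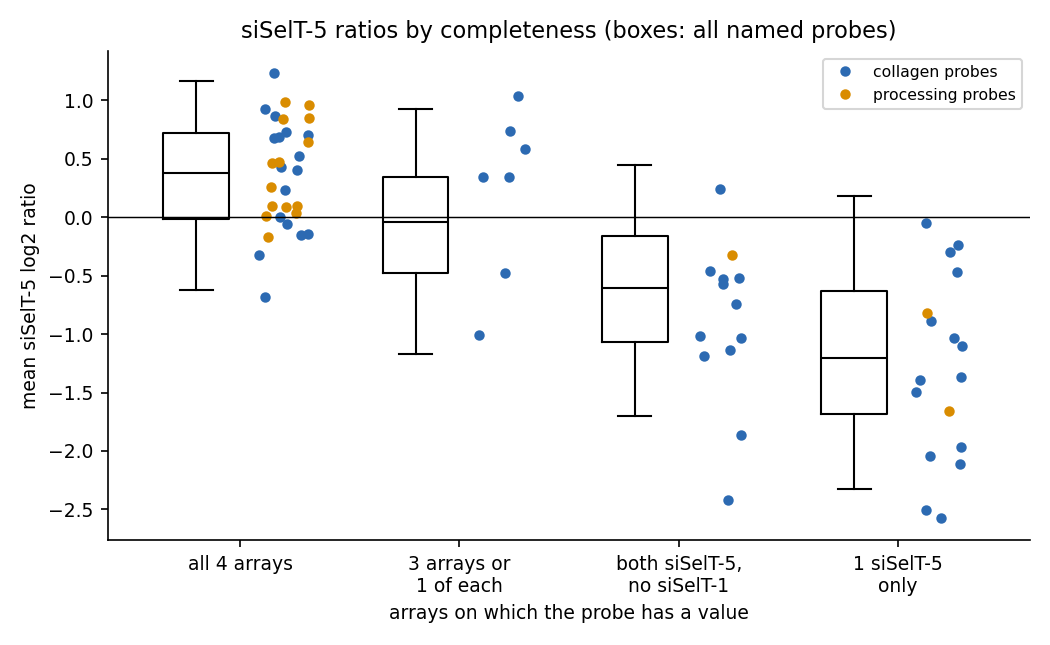
Mean siSelT-5 log2 ratio (y axis) by the arrays on which a probe has a value (x axis). Boxes show all named probes (median, quartiles, whiskers from the 5th to the 95th percentile) and points the member probes, blue for collagens and orange for processing genes. Member medians are 0.43 on all 4 arrays and -1.37 on a single siSelT-5 array, beside 0.38 and -1.20 for all named probes.

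Cartilage collagens were mostly in this incomplete class. Col11a1, a chain of cartilage fibrils, had 4 probes. 1 read 0.10 with siSelT-1 and 0.80 and 0.67 with siSelT-5. The others had no siSelT-1 value and averaged -0.46, -1.86 and -2.42 with siSelT-5. Col2a1, the main cartilage collagen, averaged -0.57 on 1 probe and gave -1.96 on siSelT-5 replicate 1 alone on the other, and Col9a2 averaged -1.03. Col9a3 and Col10a1 gave single values of -2.50 and -2.57. Col11a2 gave -1.40, and the 2 Col9a1 probes gave 1 value each, -0.24 and -0.051. Ratios do not give levels, so how much of these collagens the cells made was not measured.

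Col14a1, a fibril-associated chain, averaged -1.14 and Col7a1, the anchoring fibril chain, -1.19 with siSelT-5, again without siSelT-1 values. The incomplete Col4a6 probe averaged -1.02. Col23a1, a transmembrane collagen, had a siSelT-1 reading of -1.22 and read -0.40 and -0.56 with siSelT-5. Its mean of the construct means in the fit over 6024 genes was -0.85. In the same fit that mean was 0.42 for Col11a1, on its 1 probe with a siSelT-1 value, and 0.085 for Col15a1. For each of these genes siSelT-1 rests on 1 array.

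Other genes of the collagen pathway came from a list of 43, of which 34 were on the array and 23 had complete values. For both constructs 7 rose and 3 fell (43.5% passed, against 53.7% of all genes), and after centring 5 were higher and 7 lower. Of all genes 42.4% passed after centring (20.5% higher, 21.9% lower). P4hb, the beta subunit that joins P4ha1 or P4ha2 and is also a disulfide isomerase, rose to 0.89 ± 0.44 (SD, n = 4; adjusted p = 0.00161). Ppib, cyclophilin B of the prolyl 3-hydroxylase complex, rose to 0.76 ± 0.20, and P3h4, a partner of lysyl hydroxylase, to 0.41 ± 0.29. Fmod, a fibril-binding proteoglycan, rose to 0.75 ± 0.28, and the collagen receptor Ddr1 to 0.60 ± 0.31. The collagenase Mmp14 rose to 0.51 ± 0.13 and the chaperone Fkbp7 to 0.29 ± 0.099. After centring P3h4 and Fkbp7 did not pass, at 0.15 (adjusted p = 0.161) and 0.020 (adjusted p = 0.852), and the other 5 did.

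Dcn, the fibril-coating proteoglycan decorin, fell to -0.37 ± 0.57 (SD, n = 4; adjusted p = 0.0119). It read -0.88 and -0.84 with siSelT-1 and 0.21 and 0.024 with siSelT-5, so it stood below vector with siSelT-1 alone. Fn1, fibronectin, fell to -0.61 ± 0.32, and Ccn2, connective tissue growth factor, to -1.30 ± 0.80 (SD, n = 4). Ccn2 read -0.66 and -0.79 with siSelT-1 and -2.41 and -1.35 with siSelT-5, below vector on every array. Of the 23 genes, 0 passed for siSelT-1 minus siSelT-5 (limma, 11 at an unadjusted p under 0.05). At that unadjusted threshold stood 1697 of all 4754 genes.

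Cell type could be checked only through ratios, since the table holds no levels. All 9 fibroblast markers were on the array and 7 had complete values, with 4 higher and 2 lower for both constructs, and 2 higher and 3 lower after centring. Of all genes 53.7% passed as deposited and 42.4% after centring. Of the fibroblast markers, Postn passed for siSelT-1 minus siSelT-5, at -2.42 (limma, adjusted p = 0.0219). It fell with siSelT-1 (-0.78, adjusted p = 0.0296) and rose with siSelT-5 (1.64, adjusted p = 0.00202). Postn was also among the 4 higher markers, at 0.43, so that joint call hid opposite directions. After centring the joint value did not pass, at 0.16 (adjusted p = 0.115). None of 6 epithelial markers had complete values, and of 5 macrophage markers Lyz2 had, at -0.20 ± 0.072 (adjusted p = 0.0762) and lower after centring, at -0.47 (adjusted p = 0.00739). Markers of other cells moved with the knockdown as well. All 3 endothelial markers with complete values rose (0.70 to 0.72), as did 2 of 2 adipocyte markers (0.64 to 0.71). Sox9 of the chondrocyte list (0.62) and Bglap of the osteoblast list (0.61) rose too. Each of these was also higher after centring, where 20.5% of all genes were, beside 45.7% as deposited. Complete values were held by 3 of 3 endothelial markers on the array, 2 of 3 adipocyte, 1 of 4 chondrocyte and 1 of 2 osteoblast markers. Of the smooth muscle list Des rose (0.44), but after centring it did not pass, at 0.18 (adjusted p = 0.137). Acta2 read -0.40 and -0.45 with siSelT-1 and 0.87 and 0.49 with siSelT-5. With siSelT-1 it was below vector and did not pass, at -0.43 ± 0.036 (SD, n = 2; adjusted p = 0.0835), and with siSelT-5 it rose, to 0.68 ± 0.27 (SD, n = 2; adjusted p = 0.00884). After centring the siSelT-1 mean passed, at -0.57 (adjusted p = 0.0496), and the siSelT-5 mean did not, at 0.29 (adjusted p = 0.108). Their part in the collagen ratios was not tested. In such bulk RNA, fewer cells of a type and less RNA per cell cannot be told apart.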

How the data were processed

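RNA of knockdown and vector cells was compared on 4 two-colour oligonucleotide arrays, 2 per construct. The authors deposited 1 table of log ratios, read here as log2, with 1 column per array per the file headers. Background correction, normalization and filter are not given in the sources used here. Gene names came from the platform annotation (18129 probes with a single name, 140 with several, 4265 with none), and 18041 probes matched RefSeq by Entrez identifier with 0 symbols changed.

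In the fit over 4754 genes a gene was the mean of its single-name probes with a value on all arrays. In the fit over 6024 genes probes with a value for each construct entered, and each array averaged those it had. Construct means were fitted with limma 3.58.1 (R 4.3.3, lmFit and eBayes), two-sided, with Benjamini-Hochberg adjustment over 4754 genes at 0.05. The script was tested on simulated data. With 2 arrays per construct the number of arrays sets the precision. Named were all members with complete values, members with both siSelT-5 values and a mean past 1 in size, and pathway genes that passed. Other incomplete members and markers were named after their values were seen. Members and lists were chosen with earlier results of these data known.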

Additional observations from a re-analysis of the deposited data

How the results depend on the processing

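Of 1120 comparisons of a member's value with an alternative, 896 kept direction and side of the threshold, 105 newly passed, 45 no longer passed and 74 changed sign. No value that changed sign had passed in the main analysis. Same-numbered arrays of the constructs deviated with a correlation of 0.076 over 4754 genes, and with 2 pairs they share only a number. With the replicate block 11 members passed for both constructs, 9 for siSelT-5, 0 for the difference (limma, 9 at an unadjusted p under 0.05) and 0 for siSelT-1 (limma, 9 likewise), where adjusted p was 0.0577 for Col3a1 and 0.0534 for Col5a2. It changed no other member call. Robust eBayes and added unnamed probes changed no member call.

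For siSelT-1 the 2 passing members became 7 with arrays centred and scaled, 12 with array weights, 8 at an adjusted p under 0.10, 4 with single probes and 0 with a value on 1 array of each construct (limma, 10 at an unadjusted p under 0.05). The last setting passed 1.11% of all genes for siSelT-1. For scaling, array weights, single probes, the replicate block and an adjusted p under 0.10, the share of all genes was not counted. Member counts under those settings therefore have no background beside them. Leaving out 1 array gave 0 to 13. For both constructs leaving out 1 array moved 11 to between 0 and 15, and for siSelT-5 single probes moved 9 to 17 of 31 probes. For the difference 1 passed with array weights, 7 at an adjusted p under 0.10, and 0 to 12 with 1 array left out.

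With arrays centred, medians moved to -0.36 for both, -0.27 for siSelT-5 in fibrillar genes, 0.0012 for both, -0.16 for siSelT-1, 0.089 for siSelT-5 in basement membrane genes, 0.44 for both, 0.31 for siSelT-1, 0.58 for siSelT-5 in microfibrillar genes. Centred and scaled, medians moved to -0.40 for both, -0.59 for siSelT-1, -0.20 for siSelT-5 in fibrillar genes, -0.030 for both, -0.21 for siSelT-1, 0.073 for siSelT-5 in basement membrane genes, 0.43 for both, 0.46 for siSelT-5 in microfibrillar genes. With a value on 1 array of each construct, medians moved to 0.25 for both, 0.091 for siSelT-1, 0.40 for siSelT-5 in fibrillar genes, 0.085 for both, -0.16 for siSelT-1, 0.34 for siSelT-5 in basement membrane genes. With single probes, medians moved to -0.44 for both, -0.72 for siSelT-1 in fibrillar genes, 0.037 for both, -0.075 for siSelT-1, 0.68 for siSelT-5 in basement membrane genes, 0.56 for both, 0.80 for siSelT-5 in microfibrillar genes. With 1 array left out, medians ranged from -0.039 to 0.40 (fibrillar, siSelT-5), from 0.22 to 0.29 (basement membrane, both), from 0.48 to 0.60 (basement membrane, siSelT-5).

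Signs turned with arrays centred for both Bmp1 (-0.23), Col16a1 (-0.12), Col4a1 (-0.23), Col5a3 (-0.020), Col8a1 (-0.24), Loxl1 (-0.076), P4ha1 (-0.026), P4ha2 (-0.065), Plod1 (-0.12), Plod2 (-0.063), for siSelT-1 Col4a5 (-0.024), Col5a3 (-0.049), Loxl1 (-0.037), P3h1 (-0.10), for siSelT-5 Bmp1 (-0.21), Col16a1 (-0.39), Col4a1 (-0.16), Col4a6 (-0.13), Loxl1 (-0.11), P4ha1 (-0.36), P4ha2 (-0.30), Plod1 (-0.30), Plod2 (-0.38), for the difference Loxl1 (0.078). Centred and scaled they turned for both Bmp1 (-0.25), Col16a1 (-0.062), Col4a1 (-0.26), Col5a3 (-0.019), Col8a1 (-0.18), Loxl1 (-0.071), P4ha2 (-0.034), Plod1 (-0.087), for siSelT-1 Col4a5 (-0.029), Col5a3 (-0.064), Loxl1 (-0.049), P3h1 (-0.13), for siSelT-5 Bmp1 (-0.16), Col16a1 (-0.31), Col4a1 (-0.15), Col4a6 (-0.088), Loxl1 (-0.094), P4ha1 (-0.31), P4ha2 (-0.30), Plod1 (-0.26), Plod2 (-0.31), for the difference Col6a1 (0.067), Loxl1 (0.045), Plod3 (0.0019). With a value on 1 array of each construct the sign turned for siSelT-5 Col3a1 (0.22). Among single probes it turned for both Bmp1 (-0.22), Col8a1 (-0.40), for siSelT-1 Bmp1 (0.15), Col8a1 (-0.11), P3h1 (-0.12), for siSelT-5 Bmp1 (-0.17), Col4a6 (-0.15), Col8a1 (0.43), for the difference Col4a6 (0.071), Loxl1 (0.075). Signs also turned with 1 array left out, with ranges for both of -0.015 to 0.084 (Bmp1), -0.034 to 0.11 (Col4a1), -0.22 to 0.047 (Col4a6), -0.11 to 0.51 (P4ha2), for siSelT-1 of -0.025 to 0.099 (P3h1), for siSelT-5 of -0.19 to 0.20 (Col16a1), -0.38 to 0.080 (Col3a1), -0.0010 to 0.53 (Col4a6), -0.18 to 0.26 (P4ha1), -0.53 to 0.71 (P4ha2), -0.16 to 0.35 (Plod1), -0.099 to 0.12 (Plod2), for the difference of -0.64 to 0.019 (Col5a3), -0.39 to 0.85 (P4ha2), -0.14 to 0.37 (Plod1). The cause was not tested.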
